A study of Homo sapiens with 3 samples.

Results

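The genes described here are 10 genes by which luminal and milk-producing cells of the breast are recognised: the transcription factors GATA3, FOXA1 and ELF5, the surface proteins EPCAM, MUC1 and CD24, the receptors KIT and PRLR, and the milk proteins CSN2 and LALBA. They were chosen by symbol, with the gene names of GENCODE release 44, and are 10 of the 62754 genes in the deposited table. RNA-seq was measured in 3 replicates of MCF10A, a spontaneously immortalized epithelial line from the human breast that does not form tumours. All 3 replicates carried an empty vector (EV), the doxycycline-inducible Retro-X Tet-One construct without a gene of interest. They had been selected with puromycin and were harvested untreated, without doxycycline, and the study's methods place RNA sampling at 27 h after seeding. The replicates form 1 condition and 1 batch of 1 cell line, so no group can be compared with another, and nothing in the labels says whether they came from separate cultures. The comparisons below are between genes within a replicate, in TPM (a transcript abundance: reads per gene divided by its length and scaled to the same total in every replicate), and between replicates.

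The ducts and lobules of the breast have an inner luminal layer and an outer basal, or myoepithelial, layer. GATA3, FOXA1 and the oestrogen receptor direct the fate of hormone-sensing luminal cells. ELF5, an ETS factor, together with prolactin, its receptor PRLR, the kinase JAK2 and STAT5, directs the alveolar luminal cells that make milk. KIT marks luminal progenitors. CSN2 (beta-casein) and LALBA (alpha-lactalbumin, the regulatory subunit of lactose synthase) are made in quantity during lactation. MCF10A cells are commonly described as basal-like.

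The replicates held between 11166546 and 15446347 reads on annotated genes, a depth at which 3 reads correspond to 0.185, 0.180 and 0.217 TPM for a gene of the length of GATA3 in replicates 1, 2 and 3. Replicate 3 was the shallowest, and its median log2 ratio over 8804 genes that averaged 10 TPM or more was -0.25 to replicate 1 and -0.24 to replicate 2. In bulk RNA, fewer cells of a type and less RNA per cell cannot be told apart.

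At a cutoff of 1 TPM, the level that the study's methods set for its metabolic models, 5 of the 10 luminal and milk genes were expressed by the mean of the replicates (EPCAM, GATA3, MUC1, CD24 and FOXA1), 1 had a few reads (PRLR) and 4 had 0 reads in every replicate (ELF5, KIT, CSN2 and LALBA). None reached 100 TPM. Of the 20046 protein-coding genes, 56.7% had a mean of at least 1 TPM and 26.2% had 0 reads in every replicate, so the count of 5 of 10 lies near the background, and so few genes cannot set 4 of 10 apart from it. At or above the cutoff in every replicate were 4 of the 10 genes, all of the 5 but FOXA1, against 55.2% of protein-coding genes. The median of the mean levels was 0.568 TPM over the 10 genes and 3.75 TPM over all protein-coding genes. The former is the midpoint between FOXA1 at 1.11 TPM and PRLR at 0.0301 TPM, and no member lies near it.

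**Figure D1:**
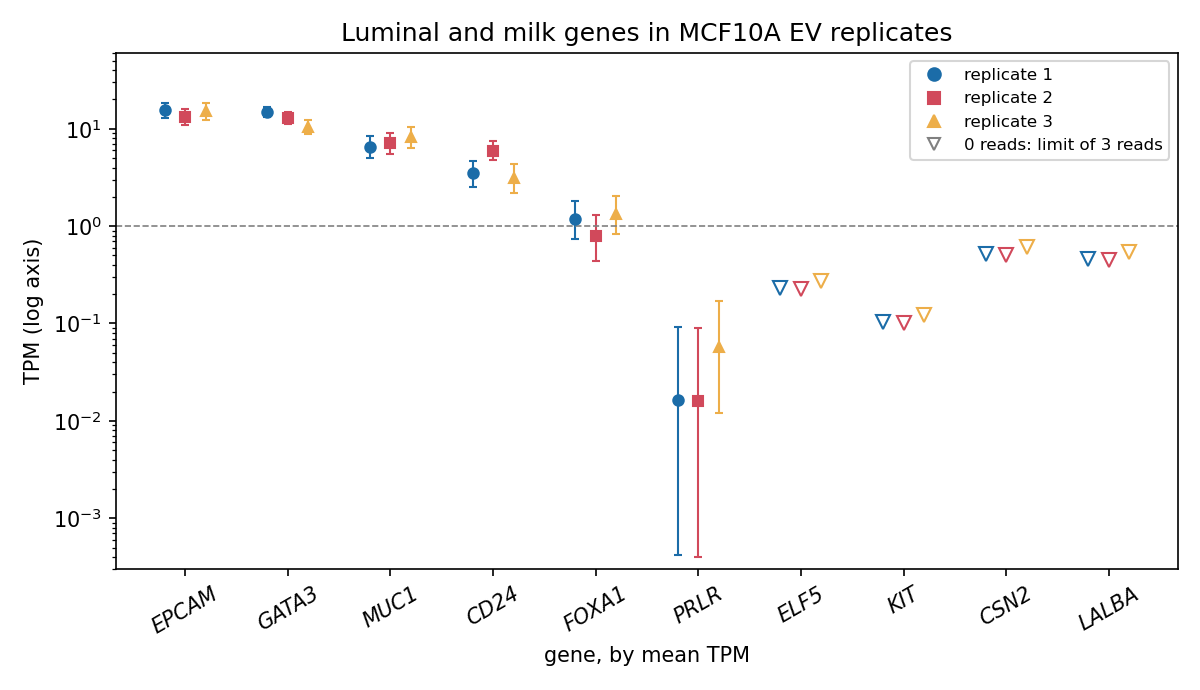
TPM on a log axis for each of the 10 genes, ordered by mean, with 1 symbol per replicate and exact 95% Poisson intervals of the reads as bars. Open triangles give the level of 3 reads for genes with 0 reads, and the dashed line marks 1 TPM. EPCAM to CD24 lie above the line in every replicate, FOXA1 lies across it between 0.790 and 1.34 TPM, and PRLR lies at or below 0.0578 TPM.

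The promoters of both milk genes are shown first, since the milk genes are the ones whose control by prolactin and STAT5 is textbook knowledge. The sequences are the 250 bases before the transcription start in RefSeq on GRCh38.p14, read 5′ to 3′ on the strand of the gene. Capitals mark the STAT-type motif TTCNNNGAA, a palindrome that reads alike on both strands, and the TATA box TATAAA, searched on both strands. The CSN2 window is chr4:69965729-69965978 on the minus strand, and that of LALBA is chr12:48570047-48570296 on the minus strand.
CSN2: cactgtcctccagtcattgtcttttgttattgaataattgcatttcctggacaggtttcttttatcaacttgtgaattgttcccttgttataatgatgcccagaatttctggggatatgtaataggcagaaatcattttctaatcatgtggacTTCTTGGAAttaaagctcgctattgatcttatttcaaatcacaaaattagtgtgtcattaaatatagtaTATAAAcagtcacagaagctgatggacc
LALBA: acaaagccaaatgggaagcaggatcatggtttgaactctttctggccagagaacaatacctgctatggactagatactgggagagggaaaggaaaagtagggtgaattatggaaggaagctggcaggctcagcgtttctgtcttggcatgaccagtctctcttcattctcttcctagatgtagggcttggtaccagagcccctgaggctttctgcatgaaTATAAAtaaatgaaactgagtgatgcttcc
In CSN2 the motif TTCNNNGAA began 97 bases before the start and TATAAA 28 bases before it. In LALBA, TATAAA began 30 bases before the start, and the letters TTCNNNGAA are not in this window. Of the 15365 protein-coding genes matched to a promoter by symbol (76.6% of all), 5.84% held TTCNNNGAA, 9.10% held TATAAA and 0.820% held both. Promoters were matched for 9 of the 10 genes, all but EPCAM.

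The promoters of the other members, except ELF5, had a higher ratio of observed to expected CG. KIT, with 0 reads, and GATA3, with the most reads of the 10 genes, are shown for comparison, with each CG in capitals. The KIT window is chr4:54657707-54657956 on the plus strand, and that of GATA3 is chr10:8054438-8054687 on the plus strand.
KIT: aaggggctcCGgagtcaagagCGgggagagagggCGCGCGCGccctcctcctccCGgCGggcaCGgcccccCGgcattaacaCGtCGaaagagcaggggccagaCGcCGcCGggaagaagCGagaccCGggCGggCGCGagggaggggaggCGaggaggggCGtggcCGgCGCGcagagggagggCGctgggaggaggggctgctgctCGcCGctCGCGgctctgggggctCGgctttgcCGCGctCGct
GATA3: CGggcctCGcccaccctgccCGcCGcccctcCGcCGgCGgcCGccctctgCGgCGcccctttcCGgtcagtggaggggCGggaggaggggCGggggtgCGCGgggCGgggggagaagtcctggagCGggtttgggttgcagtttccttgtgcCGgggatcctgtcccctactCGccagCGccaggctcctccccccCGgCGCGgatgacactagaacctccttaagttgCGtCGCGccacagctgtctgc
KIT held 34 CG and GATA3 26, while CSN2 and LALBA held 1 each. The ratio of observed to expected CG, at a median of 0.759 over the matched promoters, was 0.977 in FOXA1, 0.973 in KIT, 0.768 in GATA3, 0.666 in CD24, 0.451 in MUC1 and 0.426 in PRLR. It was 0.138 in CSN2, 0.120 in ELF5 and 0.0777 in LALBA. The genes with 0 reads thus included both the 3 lowest ratios and 1 of the highest. The RefSeq starts used for ELF5 and CD24 lay 2070 and 690 bases from the start of the canonical GENCODE transcript. MUC1 also held TATAAA, 24 bases before its start. The motif AGATAA, of the kind that GATA3 binds, was searched on both strands, was in 6.51% of the matched promoters and was in none of the 9 members. The forkhead motif TGTTTAC, also searched on both strands, was in 2.15% of them and, among the members, in ELF5, on the opposite strand.

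Of the luminal transcription factors, GATA3 was well detected, FOXA1 lay at the cutoff and ELF5 was not detected. GATA3 (ENSG00000107485, chromosome 10, 8045378 to 8075198, plus strand), a zinc finger factor required for luminal fate, was measured at 14.9, 12.9 and 10.4 TPM, on the basis of 242, 215 and 144 reads. Its mean of 12.8 ± 2.25 TPM (SD, n = 3) was higher than that of 47.3% of the 14803 protein-coding genes with a read. Replicate 3 had the lowest value, and the median over the 8804 genes averaging 10 TPM or more was also lowest there.

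FOXA1 (ENSG00000129514, chromosome 14, 37589552 to 37596059, minus strand), a forkhead factor that opens chromatin for the oestrogen receptor, was measured at 1.19, 0.790 and 1.34 TPM from 22, 15 and 21 reads. The exact 95% Poisson intervals, which cover counting error only, were 0.746 to 1.80, 0.442 to 1.30 and 0.827 to 2.04 TPM. All 3 intervals include 1 TPM, so whether FOXA1 was above the cutoff was not detectable at this depth. Only 2.84% of protein-coding genes had replicates on both sides of the cutoff, and FOXA1 was 1 of these. Its mean of 1.11 TPM became 0.990 TPM without replicate 3.

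ELF5 (ENSG00000135374, chromosome 11, 34478791 to 34525193, minus strand) had no read in any replicate, and the limit of 3 reads allows 0.233, 0.227 and 0.274 TPM. All 3 other epithelial ETS factors listed beside it were low. EHF, its neighbour on chromosome 11, had a mean of 0.236 ± 0.139 TPM (SD, n = 3), ELF3 had 3 reads in all and SPDEF had 0.

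Within the GATA family, GATA3 was the highest of 6 factors in every replicate. GATA6, at 1.68, 2.45 and 1.66 TPM, was the next by mean, and GATA3 was 6.65-fold higher (mean log2 ratio 2.73 ± 0.38, SD, n = 3). GATA2 had a mean of 1.13 TPM, or 0.938 TPM without replicate 1, and GATA1, GATA4 and GATA5 had 0 reads. ZFPM1, a cofactor of GATA factors, was measured at 3.01, 4.19 and 2.43 TPM. FOXA2 and FOXA3, the paralogs of FOXA1, averaged 0.622 ± 0.458 TPM (0.387 TPM without replicate 2) and 0.0320 ± 0.0555 TPM (SD, n = 3 each).

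All 3 surface proteins were expressed in every replicate. EPCAM (ENSG00000119888, chromosome 2, 47345158 to 47387601, plus strand), an adhesion molecule of epithelia that is stronger on luminal than on basal cells, was measured at 15.4, 13.2 and 15.1 TPM from 125, 110 and 104 reads. With a mean of 14.6 ± 1.19 TPM (SD, n = 3) it was the highest of the 10 genes and near the middle of the protein-coding genes with a read, above 49.8% of them.

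MUC1 (ENSG00000185499, chromosome 1, 155185824 to 155192916, minus strand), the mucin of the apical membrane of luminal cells, was measured at 6.52, 7.06 and 8.16 TPM from 62, 69 and 66 reads. All 3 replicates lay above 6 TPM, and the mean was 7.25 ± 0.835 TPM (SD, n = 3). It was the only one of 6 transmembrane mucins listed that reached 1 TPM. MUC4, MUC13, MUC15 and MUC20 had 0 reads, and MUC16 had 13 reads in all over a transcript of 43816 bases, a mean of 0.0192 TPM. Of the canonical transcript of MUC20, 40.2% lies in exons of other same-strand genes, so its 0 is not taken as a lack of expression.

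CD24 (ENSG00000272398, chromosome 6, 106969831 to 106975627, minus strand), a small glycoprotein used with CD44 and EPCAM to sort mammary cells, was measured at 3.48, 5.96 and 3.11 TPM from 46, 81 and 35 reads. Replicate 2 lay above both others. CD44, the hyaluronan receptor of basal cells, was measured at 400.2, 412.6 and 333.9 TPM and was 94.95-fold higher than CD24 (mean log2 ratio 6.57 ± 0.40, SD, n = 3). Of the windows of 50 bases in the canonical transcript of CD24, 8.83% also occur in transcripts of other genes, the pseudogenes CD24P2 and CD24P4 included, so that reads from these parts could not be assigned with certainty. The share was 2.87% for EPCAM and 0% for the other 8 genes. Of the canonical transcript of MUC1, 2.65% nevertheless lies in exons of other same-strand genes.

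Of the receptors, KIT was not detected and PRLR was near 0. KIT (ENSG00000157404, chromosome 4, 54657267 to 54740783, plus strand), the receptor tyrosine kinase for stem cell factor, also had no read in any replicate, with limits of 0.104, 0.101 and 0.122 TPM. Its ligand and the 5 listed signalling genes were all at or above 1 TPM, against 56.7% of protein-coding genes. KITLG, the ligand, was measured at 9.44, 7.93 and 6.58 TPM. The kinase LYN, the adaptors GRB2 and SH2B3, the exchange factor SOS1 and the ubiquitin ligase CBL had means between 19.0 TPM for LYN and 89.9 TPM for GRB2.

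PRLR (ENSG00000113494, chromosome 5, 35048756 to 35230487, minus strand), the prolactin receptor, was measured at 0.0164, 0.0160 and 0.0578 TPM from 1, 1 and 3 reads over a transcript of 11581 bases. Pooled over the replicates, its 5 reads correspond to 0.0285 TPM, with an exact 95% Poisson interval from 0.00925 to 0.0665 TPM. The upper bound is far under 1 TPM, so its call below the cutoff does not depend on depth.

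Of 12 other genes of prolactin signalling, 9 had a mean of at least 1 TPM, 2 lay below it and the hormone PRL had 0 reads. Of all protein-coding genes, 56.7% had a mean of at least 1 TPM. JAK2, the kinase bound to the receptor, was measured at 4.47, 4.35 and 4.05 TPM. STAT5B was measured at 24.1, 25.6 and 21.1 TPM and STAT5A, the form that predominates in lactation, at 0.842, 0.905 and 0.260 TPM. STAT5B was 28.6-, 28.3- and 81.2-fold higher in replicates 1, 2 and 3 (mean log2 ratio 5.33 ± 0.87, SD, n = 3), so that replicate 3 raised the mean ratio. STAT5A had 19, 21 and 5 reads in these replicates, so the ratio of replicate 3 rests on 5 reads. SOCS2, a feedback inhibitor induced by STAT5, had a mean of 27.3 ± 1.51 TPM (SD, n = 3), while CISH, SOCS3 and SOCS1, of the same family, had means of 2.30, 1.39 and 0.569 TPM. With the length of its canonical transcript CISH was at 4.68 TPM, and without replicate 1 SOCS1 was at 0.321 TPM. The phosphatase PTPN11 was the highest of the list at 150.9 ± 16.4 TPM (SD, n = 3), followed by NR3C1, the glucocorticoid receptor, which acts with STAT5 on casein genes, at 63.5 ± 5.02 TPM (SD, n = 3). The adaptor SH2B1 had a mean of 14.9 TPM, and GHR, the growth hormone receptor and closest relative of PRLR, had 2.14 ± 0.709 TPM (SD, n = 3).

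Neither milk gene had a read. CSN2 (ENSG00000135222, chromosome 4, 69955256 to 69965728, minus strand) and LALBA (ENSG00000167531, chromosome 12, 48567684 to 48570066, minus strand) are short genes, so that 3 reads already correspond to between 0.501 and 0.605 TPM for CSN2 and between 0.447 and 0.540 TPM for LALBA. Over the 3 replicates together, the limit of 3 reads was 0.179 TPM for CSN2 and 0.159 TPM for LALBA. These limits use the longest transcript, which for LALBA has 1243 bases. Its canonical transcript has 728 bases, and at that length its limits are higher. No exonic base of either canonical transcript is shared with another gene.

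Of 12 other genes of milk synthesis and secretion, 7 had 0 reads, against 26.2% of protein-coding genes. They were the caseins CSN1S1 and CSN3, the milk fat genes BTN1A1, PLIN2 and CIDEA, the peroxidase LPO and the phosphate carrier SLC34A2. For PLIN2, whether the 0 comes from the cells or from the counting was not tested. The other 5 genes had reads. The highest were XDH, xanthine oxidoreductase, which also has a role in purine breakdown, at 61.4, 63.5 and 53.3 TPM, and MFGE8 (lactadherin) at 63.5, 65.2 and 59.4 TPM. Both are also used outside the breast. OLAH, the thioesterase that releases medium-chain fatty acids, was measured at 2.70, 1.78 and 3.17 TPM, and LPL and FOLR1 lay below the cutoff with means of 0.864 and 0.299 TPM.

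CSN2 lies in a stretch of genes without reads. On chromosome 4, 14 consecutive protein-coding genes from CSN1S1 to MUC7, over 552 kb, had 0 reads in every replicate, among them the 3 caseins and the saliva genes STATH, HTN1 and HTN3. Of the 10 protein-coding genes nearest to CSN2, 5 on each side, 1 had a mean of at least 1 TPM. The other silent members also had expressed neighbours. At or above 1 TPM were 8 of 10 around ELF5, 6 of 10 around LALBA and 4 of 10 around KIT, against 56.7% of protein-coding genes. KIT too lay in a stretch without reads, of 3 protein-coding genes (GSX2, PDGFRA and KIT) over 641 kb. LALBA lay in one of 2, with OR5BS1P, over 10.2 kb. ELF5 lies between CAT, at 41.2 ± 4.67 TPM (SD, n = 3), and EHF. KIT lies next to PDGFRA, with 0 reads, and KDR, with 12 reads in all, both receptor tyrosine kinases. These neighbours were looked up after the levels of the members were known.

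**Figure D2:**
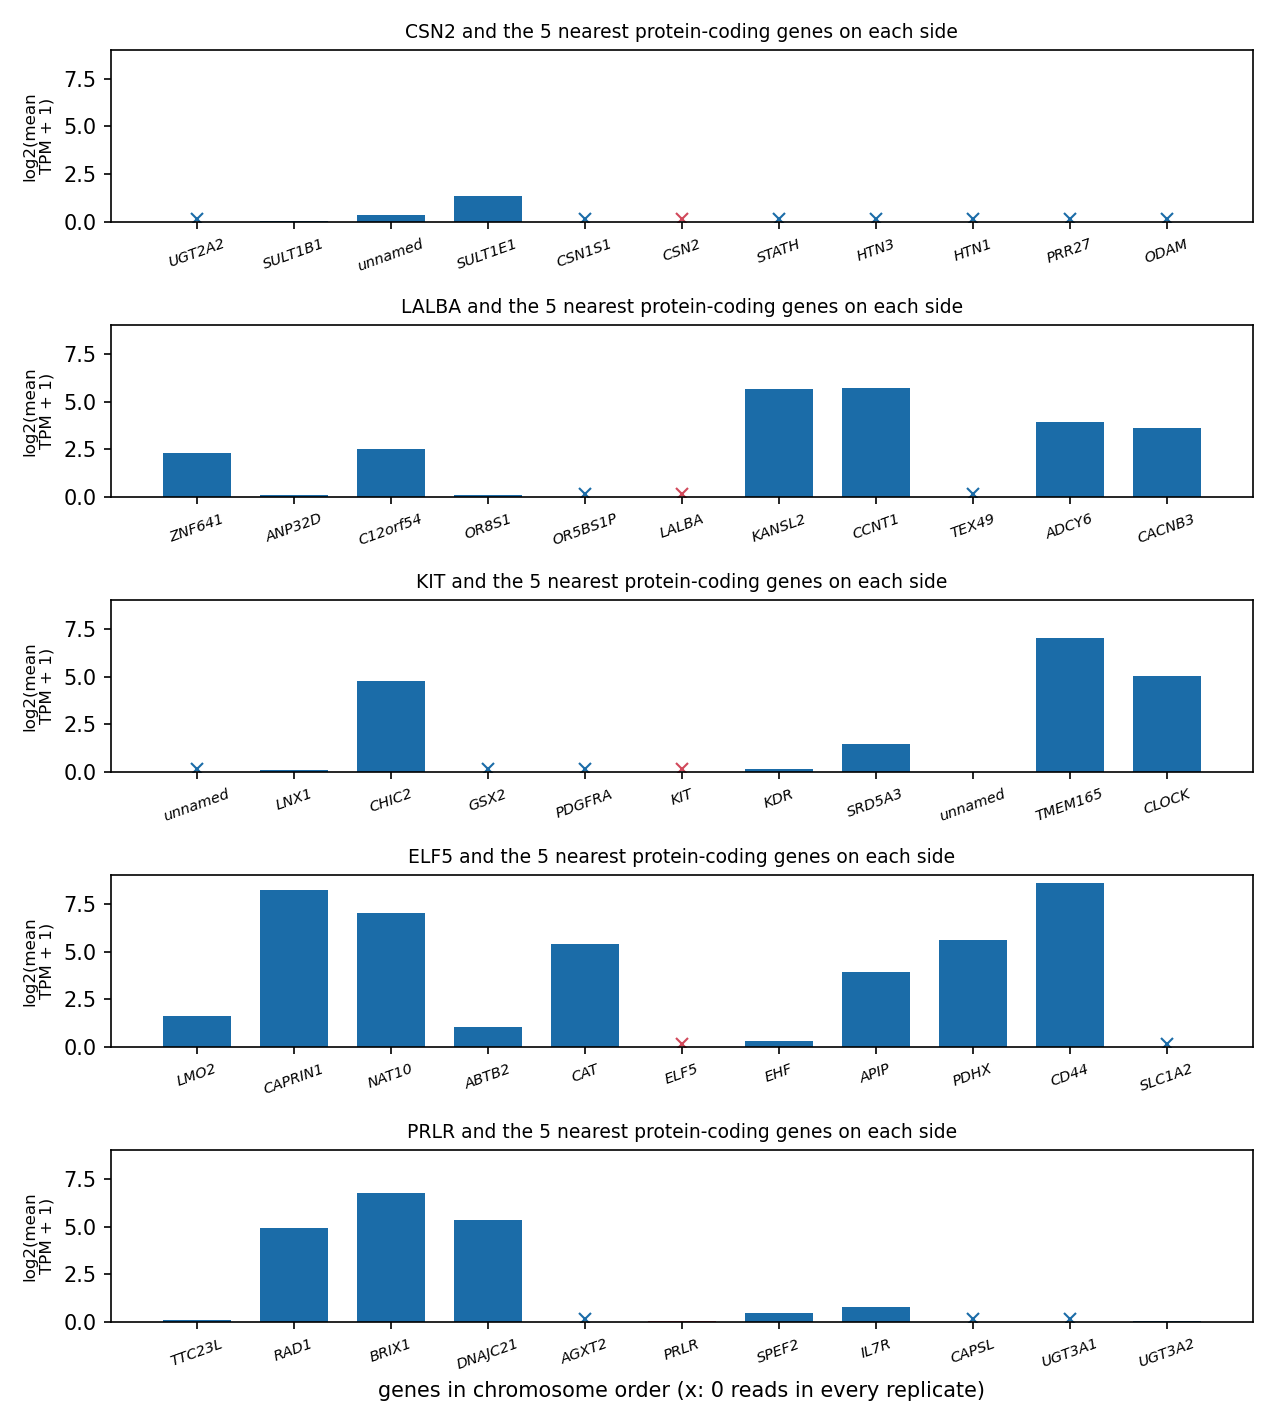
Each panel gives log2(mean TPM + 1) over 3 replicates for 1 silent or nearly silent member (red) and the 5 nearest protein-coding genes on each side (blue), in chromosome order and not to scale in distance. A cross marks 0 reads in every replicate. Around CSN2, 1 of 10 neighbours reached 1 TPM, and around ELF5 8 of 10 did.

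The order of the 6 detected genes was EPCAM, GATA3, MUC1, CD24, FOXA1 and PRLR, and all 5 neighbouring pairs kept it in every replicate. EPCAM and GATA3 nevertheless differed by less than their spread, with a mean log2 ratio of 0.20 ± 0.28 (SD, n = 3). GATA3 was 1.75-fold above MUC1 (log2 ratio 0.81 ± 0.42), MUC1 1.80-fold above CD24 (0.85 ± 0.58), CD24 3.72-fold above FOXA1 (1.89 ± 0.90) and FOXA1 43.6-fold above PRLR (5.45 ± 0.84; SD, n = 3 each), the last resting on 5 reads. With 3 replicates an exact sign-flip permutation test cannot give a two-sided p under 0.25, so none is given for the order. Ratios within a replicate do not depend on the scaling of the replicate.

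Between replicates, CD24 was the member whose reads varied beyond counting error. The reads of each gene, if it had 15 or more in total, were set against each other over the replicates, after each replicate was scaled by its median ratio, with a chi-square test and Benjamini-Hochberg adjustment over 15802 genes. This test compares these libraries and covers counting error only. CD24 passed (chi-square test, adjusted p = 0.0150), and its scaled values were 3.28, 5.68 and 3.49 TPM. The adjusted p of the same test was 0.277 for GATA3, 0.228 for FOXA1, 0.196 for EPCAM and 0.137 for MUC1. Of all genes tested, 31.2% passed, and of the 4062 genes with as many reads in all as these members, from 58 to 601, 19.5% did, so that 1 of the 5 members tested is near the background. Without replicate 2, the adjusted p of CD24 was 0.910, and without replicate 1 it was 0.0535.

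**Figure D3:**
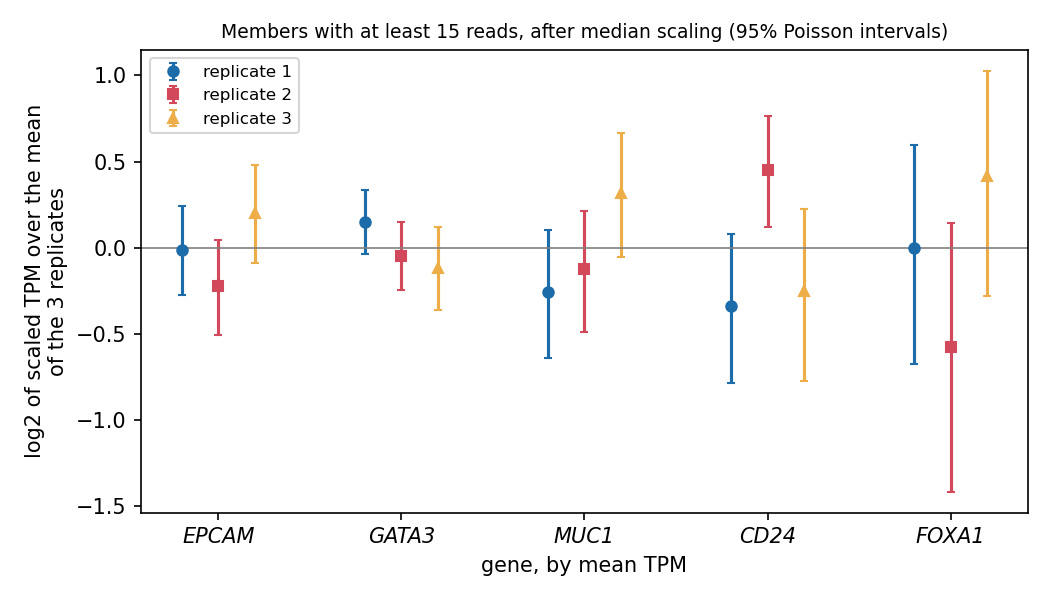
For the 5 members with at least 15 reads, log2 of the median-scaled TPM of each replicate over the mean of the 3 replicates, with exact 95% Poisson intervals of the reads as bars. CD24 is the gene in which replicate 2 lies apart, at 5.68 scaled TPM against 3.28 and 3.49.

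The basal markers lay far above the luminal and milk genes. Both lists were chosen with earlier results of these data known, so the comparison describes these lists only. Of 16 basal genes, 15 had a mean of at least 10 TPM and 14 of at least 100 TPM, against 2 and 0 of the 10 luminal and milk genes. Of all protein-coding genes, 41.7% had a mean of at least 10 TPM and 7.86% of at least 100 TPM, and 0 of 10 genes is near the latter share. KRT5, the keratin that marks basal cells, was the highest at 6612 ± 890 TPM (SD, n = 3). NGFR, a receptor used to sort basal cells, was the exception with 3 reads in all. The median of log2(TPM + 1) was 8.89 ± 0.20 for the basal list and 0.55 ± 0.11 for the members, a difference of 8.41, 8.58 and 8.004 in replicates 1, 2 and 3 (mean 8.33 ± 0.30, SD, n = 3). Its size depends on the pseudocount, since 5 of the 10 members lie below 1 TPM, and over genes averaging 1 TPM or more it was 6.09. For single pairs, TP63, the master factor of basal cells, was 3.92-fold above GATA3 (log2 ratio 1.97 ± 0.08, SD, n = 3), and EGFR was 13.9-fold above EPCAM (3.79 ± 0.28, SD, n = 3).

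Luminal genes outside the 10 members were looked up in the same measurements. Of 21 genes of mature luminal cells, 9 had a mean of at least 1 TPM and 6 had 0 reads (SPDEF, TFF1, TFF3, ANKRD30A, CLDN3 and ERBB4). The shares of all protein-coding genes were 56.7% and 26.2%, so the 6 with 0 reads lie near the background. Among the 9, AGR2 was at 1.03 TPM, and at 0.701 TPM without replicate 1. With canonical lengths for every gene and the total rescaled, AGR2 was at 0.836 TPM, although its own length is the same. KRT7 was the highest at 1387 ± 182 TPM (SD, n = 3). KRT18 and KRT8, the keratin pair of simple epithelia, averaged 412.6 ± 44.8 TPM and 117.8 ± 11.4 TPM (SD, n = 3 each), and KRT18 was 32.6-fold above GATA3, while KRT19, another luminal keratin, had 1 read in all. The hormone receptors ESR1 and PGR had 3 reads and 1 read in all. XBP1, a factor of secretory cells, had a mean of 124.6 ± 16.2 TPM, and TBX3 of 9.71 ± 1.05 TPM (SD, n = 3 each). Of 12 genes of luminal progenitors and alveolar cells, 5 had a mean of at least 1 TPM, against the same 56.7%. The protease inhibitor SLPI was the highest at 422.7 ± 28.6 TPM (SD, n = 3). ALDH1A3, KRT15, SOX9 and CD14 had means between 1.96 and 9.02 TPM (KRT15 7.08 TPM, or 12.7 TPM with the length of its canonical transcript), and LTF, PIGR, PROM1 and SOX10 had 0 reads.

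**Figure D4:**
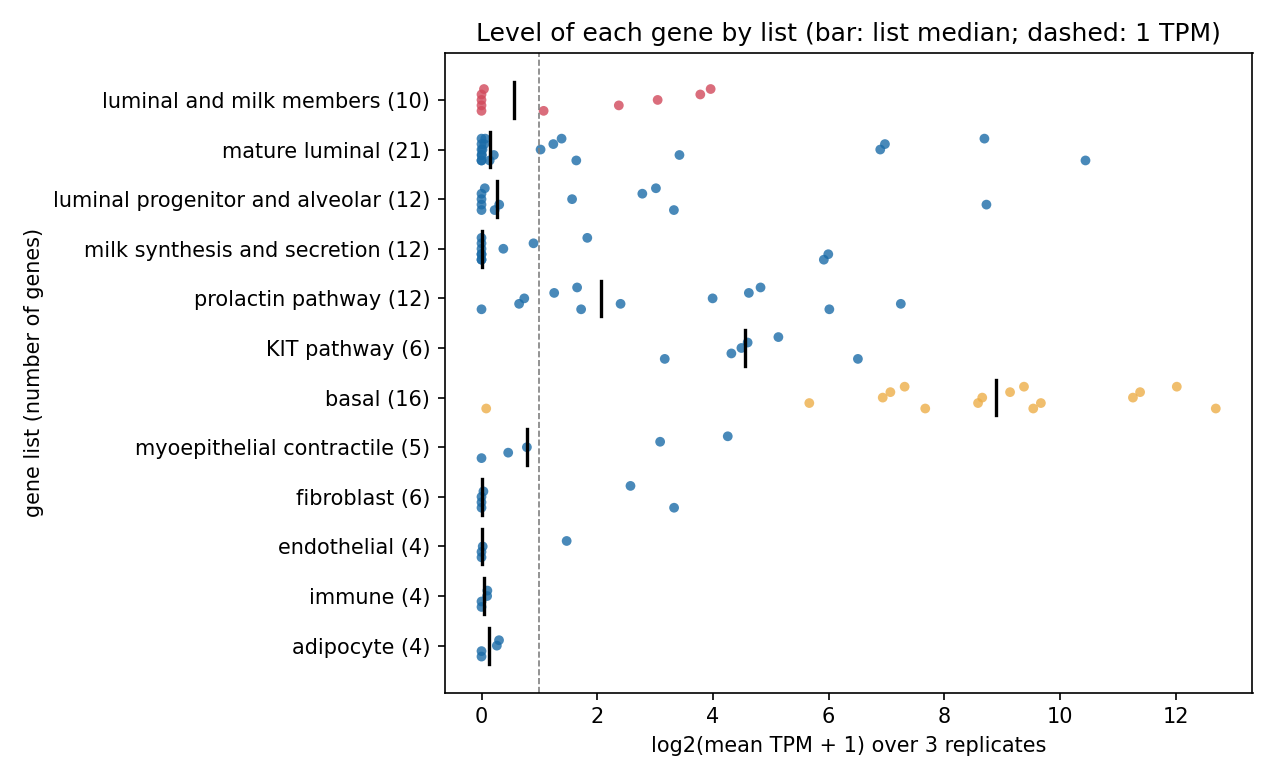
Each point is log2(mean TPM + 1) of 1 gene over 3 replicates, in rows by gene list with the number of genes in brackets. The black bar is the list median and the dashed line 1 TPM. In the basal list 15 of 16 genes lie above 10 TPM, while the 10 luminal and milk genes have a median of 0.568 TPM.

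Markers of other cell types of the breast and contractile genes of myoepithelial cells, the differentiated basal cells, were also looked up. None of 4 immune and none of 4 adipocyte markers reached 1 TPM, and their summed levels lay between 0.0621 and 0.286 TPM and between 0.190 and 0.645 TPM over the replicates. Of the transcript of the immune marker CD68, 94.9% lies in exons of other same-strand genes, so its 2 reads are not taken as a lack of expression. Of 4 endothelial markers PECAM1 did, at a mean of 1.77 TPM, while CDH5 and CLDN5 had 0 reads, and the sum lay between 1.57 and 1.997 TPM. Of 6 fibroblast markers DCN and COL1A1 did, at means of 9.05 and 4.96 TPM, while COL1A2, PDGFRA and LUM had 0 reads (24.0% of the PDGFRA transcript lies in exons of other same-strand genes), and the sum lay between 13.4 and 14.4 TPM. Of 5 contractile genes of myoepithelial cells TAGLN and ACTA2 reached 1 TPM, at 18.1 ± 0.676 and 7.50 ± 2.49 TPM (SD, n = 3 each), and CNN1 had 0 reads. TAGLN thus lay above EPCAM by its mean, and DCN above MUC1. The mean of ACTA2 was 12.8 TPM with the length of its canonical transcript. For TAGLN, 66.0% of the canonical transcript lies in exons of other same-strand genes.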

How the data were processed

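RNA-seq of 3 replicates of MCF10A EV cells was analysed. Per the paper's methods and the labels, the authors prepared libraries from 300 ng of RNA depleted of ribosomal RNA, ran Seq2science with the hg38 genome. The submitters' processing notes name fastp, STAR and MultiQC. Versions, gene annotation and strand setting are not given in the sources used here. The authors deposited 1 table of TPM for 62754 genes, each replicate summing to 1000000 and none pooled. Columns were matched to samples by library name.

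GENCODE release 44 gave symbols, lengths and positions and held 62700 of the identifiers. TPM times the length of the longest transcript, with 1 base less per exon, divided by its smallest value above 0, was whole for 100% of values above 0 within 0.01 reads. This was taken as reads, and rests on the smallest step being 1 read. A TPM of a gene whose main transcript is shorter than the longest is understated. A count of 0 was given the limit of 3 reads. Intervals and limits cover counting error only. Base sharing is given above over exons on the same strand, and shared windows of 50 bases over all GENCODE transcripts on both strands. Sharing with exons on the opposite strand matters if reads were counted without regard to strand. No member had any, but among others it was 59.0% for TAGLN, 49.4% for ALDH1A3, 38.3% for ACTA2 and 26.5% for KRT18. No test between groups was possible. Reads were compared between replicates by the chi-square test. On data simulated for that comparison with counting error only, it called 100% of 200 genes raised 4-fold in replicate 3. Those genes were drawn from genes with at least 100 reads in total. Smaller changes, and changes in genes with fewer reads such as FOXA1, were not simulated. Of 15638 genes simulated without change, 5.17% had p under 0.05 before adjustment.

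The members and gene lists were chosen with earlier results of these data known. The genes named are all members, the highest gene of each other list, all genes averaging 10 TPM or more in lists of up to 12 genes, and genes with 0 reads by count or name. Some genes that this rule names are not reported here. Others, such as CD44, TP63, EGFR, KRT18, KRT19 and the hormone receptors, were named after their values were seen. Alternative settings are given in the closing section. The software was scipy 1.17.1, Python 3.11.15, matplotlib 3.10.9, pandas 2.3.3 and numpy 2.4.6.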

Additional observations from a re-analysis of the deposited data

How the results depend on the processing

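No paired analysis was possible because the RNA-seq covers a single condition. Of the members, 5 reached 1 TPM, and 4 or 5 did under each alternative, with FOXA1 the gene that changed sides. It was at 0.990 TPM without replicate 3 and below 1 TPM in replicate 2. With canonical lengths for every gene and the total rescaled, FOXA1 was at 0.902 TPM, although its own length is the same. The order of the 6 detected members was kept in all 5 neighbouring pairs with canonical transcript lengths. Leaving out 1 replicate could not change this count, since every pair already held in each replicate. The difference between the medians of the basal list and the members, 8.33, was 10.24 with a pseudocount of 0.1 TPM, 6.43 with 5 TPM, 6.09 over genes averaging 1 TPM or more and 8.02 without keratins. It lay between 8.21 and 8.496 when 1 replicate was left out. The number of members that differed between replicates was 1, and 2 with TPM as deposited, where GATA3 also passed (adjusted p = 0.00706, chi-square test with Benjamini-Hochberg adjustment), an alternative that leaves the lower median of replicate 3 in place. It lay between 0 and 1 when 1 replicate was left out, with 0 without replicate 1 and without replicate 2. The median SD of log2(TPM + 1) over the members was 0.07, and between 0.03 and 0.20 under the alternatives. Members with 0 reads, whose SD is 0, lower this median. Over the members averaging 1 TPM or more it was 0.20, against 0.16 for all protein-coding genes at that level. Median scaling of each replicate, chosen after seeing the data, moved no listed mean by more than its SD. Depth limits the call of FOXA1 at the cutoff, the value but not the call of PRLR, and for CSN2 and LALBA levels below about 0.5 TPM in 1 replicate. For LALBA this level holds at the length of its longest transcript and is higher at that of its canonical transcript.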

Other observations

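PLIN2, the coat protein of lipid droplets and of milk fat globules, had 0 reads in every replicate. The limit of 3 reads was 0.105 TPM over the replicates together. The canonical transcript of PLIN2 overlaps no exon of another same-strand gene. Its neighbours on chromosome 9 were expressed, with RRAGA at 110.9 ± 15.7 TPM, HAUS6 at 35.0 ± 3.45 TPM and DENND4C at 21.4 ± 0.878 TPM (SD, n = 3 each). PLIN2 alone made up its stretch of protein-coding genes without reads. These neighbours were looked up after the value of PLIN2 was seen. Whether the 0 comes from the cells, the counting or the gene model the authors used was not tested.

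Among feedback genes of STAT5 signalling, SOCS2 was at 29.0, 26.6 and 26.3 TPM while CISH was at 2.64, 2.49 and 1.77 TPM (means of 34.8 and 4.68 TPM with the lengths of their canonical transcripts), in cells in which PRLR had 5 reads in all. SOCS3 and SOCS1, of the same family, had means of 1.39 and 0.569 TPM, and GHR had a mean of 2.14 TPM. Whether any of these levels reflects STAT5 signalling was not tested.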
